A study of Mus musculus with 12 samples.

Results

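Bulk RNA-seq counts of mouse scars were examined for 41 genes of the secretory pathway and the unfolded protein response. These genes were taken by symbol from the 35976 genes listed in each library. All 41 were listed, and all were among the 18853 genes that passed the filter on low counts, with 420 reads as the lowest count of any of them in any library. By role they comprised 5 genes of collagen folding, 9 HSP-type chaperones and their partners, 5 lectin chaperones and disulfide isomerases, 7 translocon genes, 8 genes of COPII export and retrieval, and 7 stress sensors and transcription factors. The 4 groups of 3 male mice each were Tem1WT/WT sham, Tem1WT/WT traction, Tem1lacZ/lacZ sham and Tem1lacZ/lacZ traction. Tem1, listed as *Cd248*, encodes a membrane glycoprotein of stromal cells, and in Tem1lacZ/lacZ mice lacZ stands in place of its coding sequence in every cell of the body. All mice were 8 to 12 weeks old, on a C57BL/6J background, and all carried a 1.5-cm back wound and, from day 6, the same plastic device. Traction scars were stretched with the device by 1 mm a day to 8 mm in total, whereas sham scars carried it at a fixed length. The design asks whether stretching changes the scar, and whether it does so without Tem1. Each library came from a part of 1 scar, so a value mixes all cell types of that tissue, and fewer cells of a type cannot be told apart from less RNA per cell.

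Proteins bound for the cell surface or the matrix enter the endoplasmic reticulum (ER) through the Sec61 translocon, are folded there by chaperones, lectins and disulfide isomerases, and leave in COPII-coated vesicles. Procollagen needs its own chaperones and prolyl hydroxylases and is too long for an ordinary vesicle. When unfolded proteins build up, the sensors Ire1, Perk and *Atf6* raise ER chaperones through *Xbp1*, *Atf4* and *Atf6*, and persistent stress raises *Ddit3*. In scars, fibroblasts that lay down collagen carry much of this load.

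Library totals were between 41536788 and 64644293 counts. Levels are given as counts per 1000000 reads (CPM) after TMM normalization. *Cd248* was at 119, 138 and 193 CPM in the Tem1WT/WT sham libraries and at 92.4, 197 and 337 CPM in the Tem1WT/WT traction libraries. In the 6 Tem1lacZ/lacZ libraries it was at no more than 0.248 CPM, so the genotype labels held in all 12. The 15 fibroblast markers were all detected in every library. Their summed level was 14700 to 20190 CPM in Tem1WT/WT sham, 22520 to 58620 in Tem1WT/WT traction, 10210 to 16090 in Tem1lacZ/lacZ sham and 12430 to 25880 in Tem1lacZ/lacZ traction.

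Promoter sequences were read for the members from a RefSeq table of GRCm38.p6, which covers 250 bases before to 50 bases after each gene's start, and 33 of the 41 matched. Both strands were searched for the ER stress response element, CCAAT and CCACG with 9 bases between them, which *Atf6* and *Xbp1* recognise. A second form, ATTGG and CCACG with 1 base between them, the unfolded protein response element TGACGTGG and an *Atf4* element, TGATG and AA with 1 base between them, were searched as well. The ER stress response element stood in 7 of the 33 members (21.2%), namely *Calr*, *Canx*, *Creld2*, *Dnajc3*, *Hsp90b1*, *Hspa5* and *Pdia6*, and in 0.137% of 27025 promoters in all. The second form stood in *Dnajb11* and *Herpud1* (0.0444% of all promoters). The unfolded protein response element stood in *Kdelr3*, *Sec23a* and *Sec24d* (0.714% of all promoters), and the *Atf4* element in *Herpud1* alone (4.51% of all promoters). No match in this window says only that these letters were not there. These genes were listed because they are known to belong to the response, so the shares describe the list and are not tested.

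The promoters of 6 members that carry the elements are shown, chosen with their levels in view. Among carriers not shown, *Hsp90b1* and *Pdia6* were highest in replicate 1 of the Tem1WT/WT traction libraries. *Canx* and *Dnajc3* were highest in replicate 2, and *Herpud1* and *Sec23a* in replicate 3. Capitals mark the fixed letters of the element. On the opposite strand the ER stress response element reads CGTGG and ATTGG, as in *Calr* and *Creld2*, and the unfolded protein response element reads CCACGTCA, as in *Kdelr3*. *Hspa5*, *Calr* and *Creld2* hold the ER stress response element, *Dnajb11* its second form, and *Kdelr3* and *Sec24d* the unfolded protein response element. In GRCm38.p6 they lie at chr2:34771840-34772139 (plus strand), chr8:84846882-84847181 (minus), chr15:88819396-88819695 (plus), chr16:22857595-22857894 (plus), chr15:79516158-79516457 (plus) and chr3:123267246-123267545 (plus), respectively. The element of *Hspa5* began 65 bases before the gene's start, that of *Creld2* 126 bases before and that of *Calr* 162 bases before, while that of *Dnajb11* lay after the start.
Hspa5: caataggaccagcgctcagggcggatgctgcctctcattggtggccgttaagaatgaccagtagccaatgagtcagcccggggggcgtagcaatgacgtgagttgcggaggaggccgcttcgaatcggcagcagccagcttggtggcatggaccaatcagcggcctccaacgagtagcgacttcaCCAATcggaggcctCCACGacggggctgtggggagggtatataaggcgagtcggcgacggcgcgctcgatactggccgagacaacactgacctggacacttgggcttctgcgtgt
Calr: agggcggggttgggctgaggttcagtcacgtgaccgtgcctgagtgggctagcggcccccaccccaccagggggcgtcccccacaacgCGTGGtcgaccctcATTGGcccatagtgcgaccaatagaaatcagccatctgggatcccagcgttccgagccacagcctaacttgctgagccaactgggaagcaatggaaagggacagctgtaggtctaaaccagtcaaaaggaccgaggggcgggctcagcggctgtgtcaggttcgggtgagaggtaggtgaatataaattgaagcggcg
Creld2: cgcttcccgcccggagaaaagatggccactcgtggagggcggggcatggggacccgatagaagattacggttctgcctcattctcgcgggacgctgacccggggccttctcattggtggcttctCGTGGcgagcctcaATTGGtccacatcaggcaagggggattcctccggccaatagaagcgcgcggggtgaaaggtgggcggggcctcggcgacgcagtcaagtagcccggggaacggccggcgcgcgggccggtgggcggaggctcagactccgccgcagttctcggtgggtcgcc
Dnajb11: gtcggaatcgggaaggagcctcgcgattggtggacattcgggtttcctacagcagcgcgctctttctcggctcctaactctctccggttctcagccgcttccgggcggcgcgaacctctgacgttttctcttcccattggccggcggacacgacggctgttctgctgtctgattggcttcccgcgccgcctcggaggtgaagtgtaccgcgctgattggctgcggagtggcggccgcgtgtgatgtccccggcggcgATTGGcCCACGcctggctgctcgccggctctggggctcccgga
Kdelr3: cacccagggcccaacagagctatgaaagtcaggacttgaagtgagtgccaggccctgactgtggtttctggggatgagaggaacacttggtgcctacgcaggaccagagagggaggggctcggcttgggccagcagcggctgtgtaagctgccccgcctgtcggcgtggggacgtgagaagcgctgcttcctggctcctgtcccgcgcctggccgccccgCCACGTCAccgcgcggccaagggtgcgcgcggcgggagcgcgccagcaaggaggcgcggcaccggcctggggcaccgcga
Sec24d: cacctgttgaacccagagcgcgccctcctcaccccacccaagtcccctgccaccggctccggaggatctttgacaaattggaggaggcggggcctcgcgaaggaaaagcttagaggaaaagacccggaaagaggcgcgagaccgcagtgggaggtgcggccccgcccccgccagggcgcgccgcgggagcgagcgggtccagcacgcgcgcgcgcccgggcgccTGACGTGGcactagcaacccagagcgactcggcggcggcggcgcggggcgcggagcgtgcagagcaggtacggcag

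Traction raised secretory pathway genes in Tem1WT/WT scars. Of the 41 genes, 15 rose and 0 fell at an adjusted p under 0.05 (edgeR quasi-likelihood test, Benjamini-Hochberg over 18853 genes), against 5.61% of all genes that rose and 3.54% that fell. All 41 fold changes were above 0, from a log2 fold change of 0.10 for *Dnajc3* to 1.66 for *Fkbp10*, although *Dnajc3* fell below 0 (-0.02) under upper quartile normalization. The median log2 fold change was 0.59, beside -0.01 over all genes. At an unadjusted p under 0.05, 33 were higher and 0 lower, where 16.7% of all genes were higher and 14.7% lower. All 3 traction libraries lay above all 3 sham libraries in 33 members and below in 0, against 17.7% and 18.0% of all genes. Among the 9537 genes with a mean level of at least 14.2 CPM, that of the lowest member, 8.27% rose and 2.93% fell, and their median was 0.08. The 41 genes together took 0.810% to 1.04% of a library's counts in Tem1WT/WT sham and 1.17% to 1.41% in Tem1WT/WT traction.

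The number of members that passed depended on single libraries, and so did the share of all genes called higher (in brackets). The member count was 0 without Tem1WT/WT sham replicate 1 (0%) or replicate 2 (0%), and 2 without Tem1lacZ/lacZ sham replicate 3 (0.635%). It was 5 without Tem1WT/WT traction replicate 3 (3.05%) and 6 without Tem1lacZ/lacZ traction replicate 3 (3.12%). It was 7 without Tem1WT/WT sham replicate 3 (2.1%) or Tem1lacZ/lacZ sham replicate 2 (3.07%). It was 8 without Tem1lacZ/lacZ sham replicate 1 (3.19%) or Tem1WT/WT traction replicate 1 (1.44%), and 9 without Tem1lacZ/lacZ traction replicate 2 (3.5%). DESeq2, the study's own tool, gave 26 higher, against 11.8% of all genes. The median log2 fold change stayed between 0.50 and 0.68 when any 1 library was left out.

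**Figure D1:**
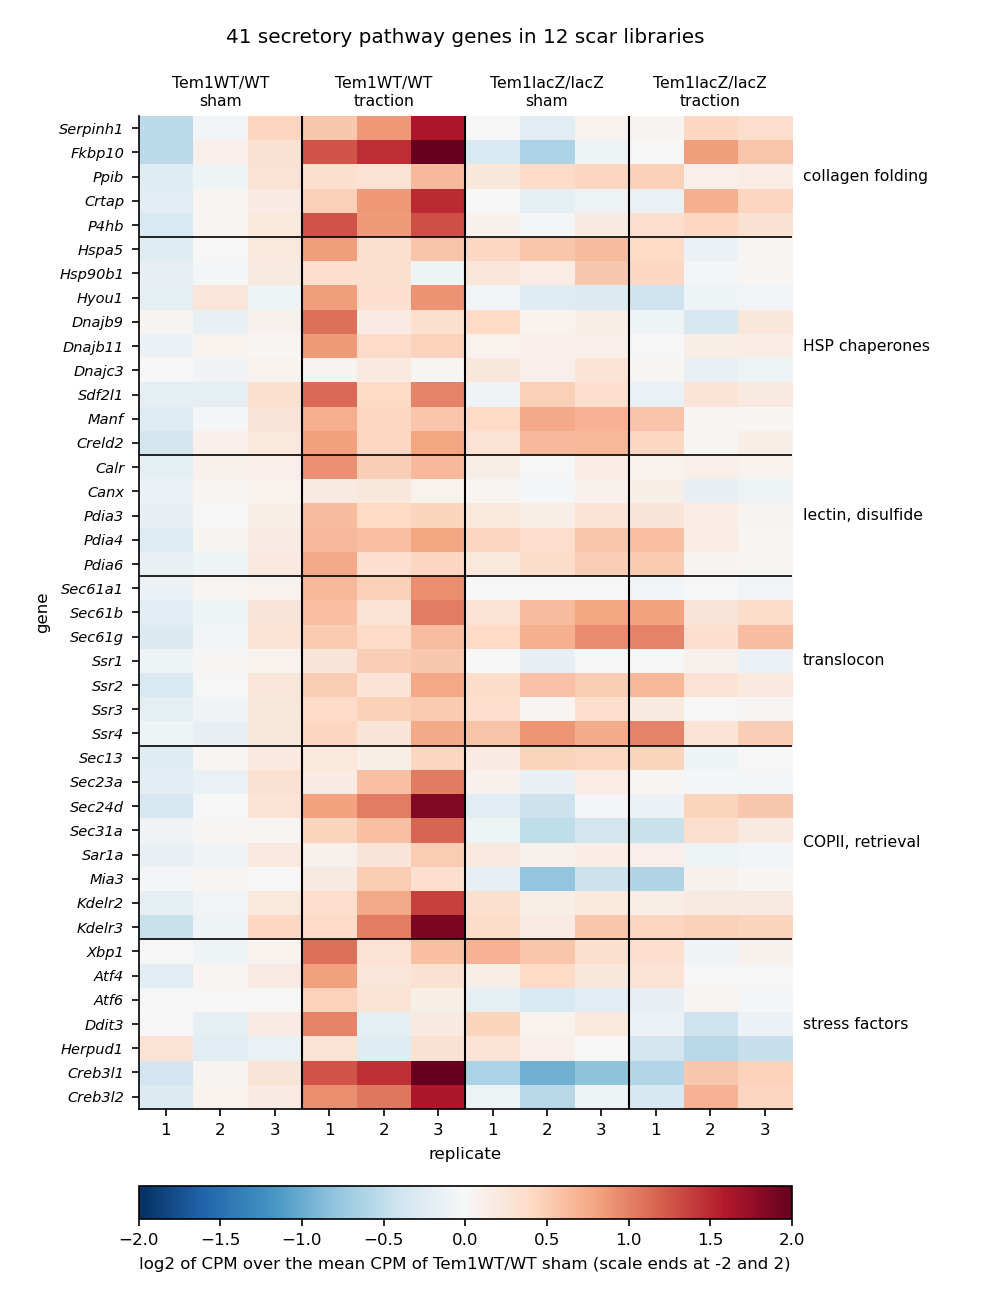
Levels of the 41 genes (rows, by role) in the 12 libraries (columns, by group and replicate), as log2 of the CPM over the mean CPM of the Tem1WT/WT sham group. The Tem1WT/WT traction columns are the reddest, with replicate 3 strongest in the collagen folding and COPII rows and replicate 1 in the chaperone and *Xbp1* rows.

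The genes of collagen folding changed the most, with a median log2 fold change of 1.09 and 3 of 5 called, where 5.61% of all genes rose. Without Tem1WT/WT traction replicate 3 the median was 0.72 with 2 called, close to the 0.61 of the HSP-type chaperones. In that fit 3.05% of all genes were called higher. *Fkbp10*, a prolyl isomerase that acts on procollagen, was at 41.1, 63.5 and 73.6 CPM in sham and at 141, 165 and 255 CPM in traction libraries of Tem1WT/WT mice. The groups were far apart, and the log2 fold change was 1.66 ± 0.30 (SE; adjusted p = 0.0252). *P4hb*, protein disulfide isomerase and the beta subunit of prolyl 4-hydroxylase, was at 464, 587 and 662 CPM in sham and at 1367, 1033 and 1401 CPM in traction libraries. The groups did not overlap, and *P4hb* had the lowest adjusted p of the 41 genes (log2 fold change 1.15 ± 0.19, adjusted p = 0.0242). *Crtap*, a partner of prolyl 3-hydroxylase 1, was at 51.8, 62.3 and 68.1 CPM in sham and at 84.4, 111 and 171 CPM in traction libraries. Its traction libraries were all higher, with replicate 3 at the top (log2 fold change 1.01 ± 0.27, adjusted p = 0.0423), and the call was lost without that library (0.69, adjusted p = 0.117). *Serpinh1*, the collagen chaperone HSP47, had the highest level per length of the 41 genes, at 653 CPM per kb of exon over all libraries. It was at 841, 1157 and 1613 CPM in sham and at 1749, 2206 and 3713 CPM in traction libraries. The groups did not overlap, and the adjusted p was just past the threshold (log2 fold change 1.09 ± 0.31, adjusted p = 0.0502). *Ppib*, cyclophilin B, changed least of the 5, from 91.6, 102 and 133 CPM to 136, 133 and 171 CPM (log2 fold change 0.43 ± 0.18, adjusted p = 0.124). A stretch of 25.0% of its exons overlaps *Snx22* on the opposite strand in GENCODE vM21, and the strand setting of the counting is not given in the sources used here.

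Among HSP-type chaperones 4 of 9 rose, with a median log2 fold change of 0.59, where 5.61% of all genes rose. *Hspa5* (BiP), the main ER chaperone, whose promoter is printed above, was at 579, 688 and 799 CPM in sham and at 1234, 856 and 1017 CPM in traction libraries of Tem1WT/WT mice. The groups did not overlap but the adjusted p was 0.0852 (log2 fold change 0.59 ± 0.21). *Hyou1*, a nucleotide exchange factor for BiP, was at 75.9, 103 and 82.2 CPM in sham and at 156, 110 and 162 CPM in traction libraries. Traction replicate 2 was barely above the highest sham library (log2 fold change 0.71 ± 0.18, adjusted p = 0.0404). *Dnajb11*, a co-chaperone of BiP, was at 58.1, 65.8 and 64.3 CPM in sham and at 113, 82.0 and 86.3 CPM in traction libraries. The groups did not overlap, and replicate 1 was the highest (log2 fold change 0.58 ± 0.14, adjusted p = 0.0348). *Sdf2l1*, which works with *Dnajb11*, had the largest change of the 9, from 10.01, 9.88 and 14.1 CPM to 24.9, 15.0 and 22.6 CPM. Here too traction replicate 2 was close to the highest sham library (log2 fold change 0.88 ± 0.24, adjusted p = 0.0459). *Creld2*, an ER stress-inducible protein, went from 16.5, 22.9 and 24.8 CPM to 38.0, 28.6 and 37.0 CPM (log2 fold change 0.69 ± 0.19, adjusted p = 0.0493). *Dnajc3*, which restrains Perk, changed the least, at 195, 189 and 208 CPM in sham and 206, 226 and 200 CPM in traction libraries, and its groups overlapped. *Hsp90b1*, a client-selective chaperone that holds 2 copies of the ER stress response element, overlapped as well (log2 fold change 0.21 ± 0.20, adjusted p = 0.520).

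Of the lectin chaperones and disulfide isomerases 2 of 5 rose, with a median log2 fold change of 0.52, where 5.61% of all genes rose. *Calr*, the soluble lectin chaperone calreticulin, was at 560, 683 and 689 CPM in sham and at 1216, 905 and 1004 CPM in traction libraries of Tem1WT/WT mice. All traction libraries were higher (log2 fold change 0.70 ± 0.16, adjusted p = 0.0349). *Pdia4* was at 169, 209 and 227 CPM in sham and at 317, 307 and 350 CPM in traction libraries, with the groups well apart (log2 fold change 0.69 ± 0.18, adjusted p = 0.0418). *Canx*, the membrane-bound counterpart of calreticulin, was at 480, 533 and 547 CPM and at 591, 608 and 549 CPM, so that its groups nearly touched (log2 fold change 0.16 ± 0.14, adjusted p = 0.457). Both lectins hold the ER stress response element in their promoters.

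All 7 translocon genes had traction libraries above all sham libraries, against 17.7% of all genes, and 1 was called higher, against 5.61%. Their log2 fold changes lay close together, from 0.44 for *Ssr1* to 0.70 for *Sec61a1*. *Sec61a1*, the channel subunit, was at 168, 190 and 193 CPM in sham and at 290, 255 and 350 CPM in traction libraries of Tem1WT/WT mice. The sham libraries were tight and the traction libraries all higher (log2 fold change 0.70 ± 0.14, adjusted p = 0.0288). *Ssr1*, of the translocon-associated complex, was at 171, 184 and 190 CPM in sham and at 216, 257 and 265 CPM in traction libraries (log2 fold change 0.44 ± 0.13, adjusted p = 0.0585). The small subunits *Sec61b* and *Sec61g* have other annotated transcripts, mostly processed pseudogenes, that match them over at least 200 bp at 95% identity or more, so their counts are less certain.

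Of the genes of COPII export and retrieval 3 of 8 rose, against 5.61% of all genes. The median log2 fold change of the 8 was 0.71. Without Tem1WT/WT traction replicate 3 the median was 0.47 and 0 of 8 were called, against 3.05% of all genes. *Sec24d*, which selects cargo for COPII vesicles and holds the unfolded protein response element printed above, was at 58.3, 74.6 and 89.0 CPM in sham and at 130, 151 and 267 CPM in traction libraries of Tem1WT/WT mice. The groups were apart, with replicate 3 far above the others (log2 fold change 1.30 ± 0.28, adjusted p = 0.0320). *Kdelr2*, a receptor that returns escaped ER proteins, was at 88.4, 97.5 and 116 CPM in sham and at 128, 171 and 261 CPM in traction libraries (log2 fold change 0.89 ± 0.22, adjusted p = 0.0384). *Kdelr3*, a second such receptor, was at 20.9, 26.8 and 38.1 CPM in sham and at 37.4, 57.9 and 105 CPM in traction libraries. It passed (log2 fold change 1.22 ± 0.33, adjusted p = 0.0446) although traction replicate 1 lay below the highest sham library. Without Tem1WT/WT traction replicate 3 the change of *Sec24d* was 0.93 (adjusted p = 0.0589), that of *Kdelr2* 0.57 (adjusted p = 0.0767) and that of *Kdelr3* 0.74 (adjusted p = 0.114). *Sec13*, an outer coat subunit, changed the least, at 87.3, 105 and 119 CPM in sham and 120, 114 and 140 CPM in traction libraries, with overlap (log2 fold change 0.26 ± 0.18, adjusted p = 0.335). *Mia3* (TANGO1), which loads procollagen into carriers, had a log2 fold change of 0.35 ± 0.20 with groups that did not overlap and an adjusted p of 0.267.

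Of the 7 stress sensors and transcription factors 2 rose, against 5.61% of all genes, and both were ER-membrane factors of the Creb3l family. *Creb3l1* (OASIS), known to act on type I collagen genes in bone, was at 28.2, 38.3 and 44.0 CPM in sham and at 88.0, 101 and 146 CPM in traction libraries of Tem1WT/WT mice. The groups were far apart (log2 fold change 1.60 ± 0.30, adjusted p = 0.0273). *Creb3l2*, known to act on COPII genes in cartilage, was at 34.3, 43.4 and 46.0 CPM in sham and at 78.5, 85.2 and 126 CPM in traction libraries, again with no overlap (log2 fold change 1.23 ± 0.27, adjusted p = 0.0326). The factors of the classical stress arms did not pass in the main edgeR fit. *Xbp1* was at 157, 147 and 162 CPM in sham and at 334, 189 and 235 CPM in traction libraries, which did not overlap (log2 fold change 0.70 ± 0.21, adjusted p = 0.0547). *Xbp1* did pass with DESeq2 (0.72, adjusted p = 0.016) and without Tem1WT/WT traction replicate 2 (0.89, adjusted p = 0.0199). It also passed in edgeR with the replicate number as a block (0.67, adjusted p = 0.0492). Gene counts do not separate its spliced, active form. *Atf4* was at 112, 134 and 146 CPM in sham and at 230, 154 and 162 CPM in traction libraries (log2 fold change 0.48 ± 0.18, adjusted p = 0.103). For both genes the highest library was traction replicate 1. *Ddit3* (CHOP) was at 12.9, 11.4 and 14.5 CPM in sham and at 25.8, 11.3 and 14.7 CPM in traction libraries. Only replicate 1 stood clear of sham (log2 fold change 0.41 ± 0.27, adjusted p = 0.312), and without it the value was -0.02. *Herpud1*, an ER-associated degradation gene with both the second element and the *Atf4* element, was at 121, 84.3 and 89.8 CPM in sham and at 121, 82.9 and 121 CPM in traction libraries, which overlapped (log2 fold change 0.14 ± 0.18, adjusted p = 0.638).

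**Figure D2:**
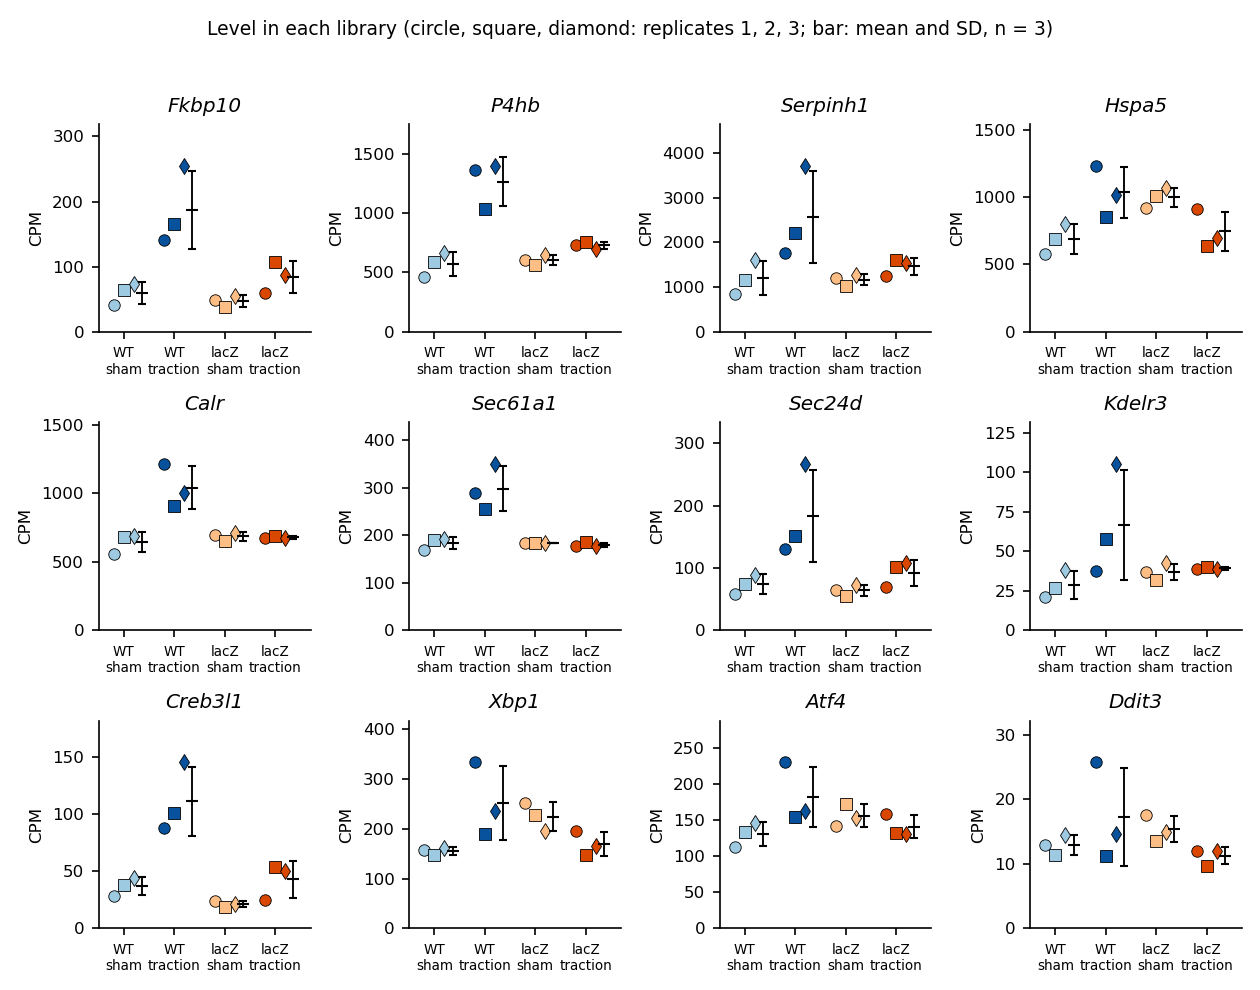
CPM of 12 of the genes in each library, with the mean and SD of each group of 3 beside the points. *Fkbp10*, *P4hb*, *Sec61a1* and *Creb3l1* are higher in every Tem1WT/WT traction library than in any Tem1WT/WT sham library, while *Ddit3* is high in traction replicate 1 alone.

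The 3 Tem1WT/WT traction libraries differed in which roles they raised. Replicate 3 held the highest level of the 3 in 24 genes, replicate 1 in 14 and replicate 2 in 3. By role, replicate 3 led in all 5 genes of collagen folding, all 7 of the translocon and 7 of 8 of COPII and retrieval, while replicate 1 led in 7 of 9 HSP-type chaperones and 4 of 7 stress factors. Relative to the sham mean, the median log2 level of collagen folding genes was 0.54 in replicate 1, 0.87 in replicate 2 and 1.49 in replicate 3. For the stress factors it was 0.93, 0.28 and 0.31. By promoter, the 7 genes with the ER stress response element were highest in replicate 1 (5 genes) or replicate 2 (2 genes), and the 3 with the unfolded protein response element in replicate 3. The 7 are all HSP-type or lectin and disulfide genes and the 3 all of COPII and retrieval, so element and role cannot be told apart. In the roles of the 7, *Dnajb9*, *Sdf2l1* and *Pdia3*, without a match, were also highest in replicate 1, and *Pdia4*, without a match, in replicate 3. Of the 2 genes with the second form, *Dnajb11* was highest in replicate 1 and *Herpud1*, which also holds the *Atf4* element, in replicate 3. These are 3 mice, and the pattern was noticed in the data and has no test.

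Markers of other cells moved with these libraries. The 15 neutrophil markers summed to 9833 CPM in traction replicate 1, 933 in replicate 2 and 588 in replicate 3, beside 154 to 185 CPM in Tem1WT/WT sham, and 8 of the 14 tested rose with traction in Tem1WT/WT mice. None of the 15 was at 0 in replicate 1. The 10 mast cell markers summed to 1284 CPM in replicate 1 and to 178 and 189 CPM in the others. Their median log2 fold change was 0.16, with 6 higher and 4 lower in sign. At the threshold *Hdc*, which is on the neutrophil list too, rose and *Ms4a2* fell, so the sum is not taken as a measure of mast cells. The fibroblast markers summed to 22520, 33920 and 58620 CPM in replicates 1, 2 and 3, although 2 of the 15 rose at the threshold, 10 were higher and 5 lower in sign, and their median log2 fold change was 0.51. In the same libraries 20 secreted matrix genes, the cargo of this pathway, summed to 73600, 111700 and 174300 CPM. Endothelial markers were 1325 to 1530 CPM in Tem1WT/WT traction and 507 to 727 CPM in sham, and 10 of 15 rose. Markers of other tissue were lower. The 14 hair follicle markers summed to 16490 to 30370 CPM in sham and 4392 to 8034 CPM in traction, all 14 without overlap, and 3 fell at the threshold (median log2 fold change -1.90). The 15 skeletal muscle markers were all lower in sign (median -2.73) and so were the 15 adipocyte markers (median -1.30), with 0 called in either list. The muscle markers summed to 18920, 4959 and 1861 CPM in Tem1WT/WT sham replicates 1, 2 and 3. In the traction replicates they summed to 2987, 518 and 588 CPM, so the groups overlapped and sham replicate 1 was far the highest. Of 15 keratinocyte markers 1 fell and of 15 macrophage markers 1 rose. The 8 plasma cell markers found in the files, of 16 listed, summed to 605 to 1013 CPM in traction and 709 to 844 CPM in sham, and 0 passed. Of these, *Sdc1* held 25470 to 48295 reads a library, and no other exceeded 5127. *Mzb1*, *Tnfrsf17*, *Derl3* and *Pou2af1* had at most 79 reads, so the sum mainly follows *Sdc1* and is no measure of plasma cells. Without traction replicate 1, 0 of the 9 HSP-type chaperones, 0 of the 5 lectin and disulfide genes and 3 of the 5 genes of collagen folding were called. The medians of these roles were 0.42, 0.41 and 1.20. Calls over all genes fell too in that fit, to 1.44% higher from 5.61% with all 12 libraries. The part of these cells and tissues in the changes was not tested.

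**Figure D3:**
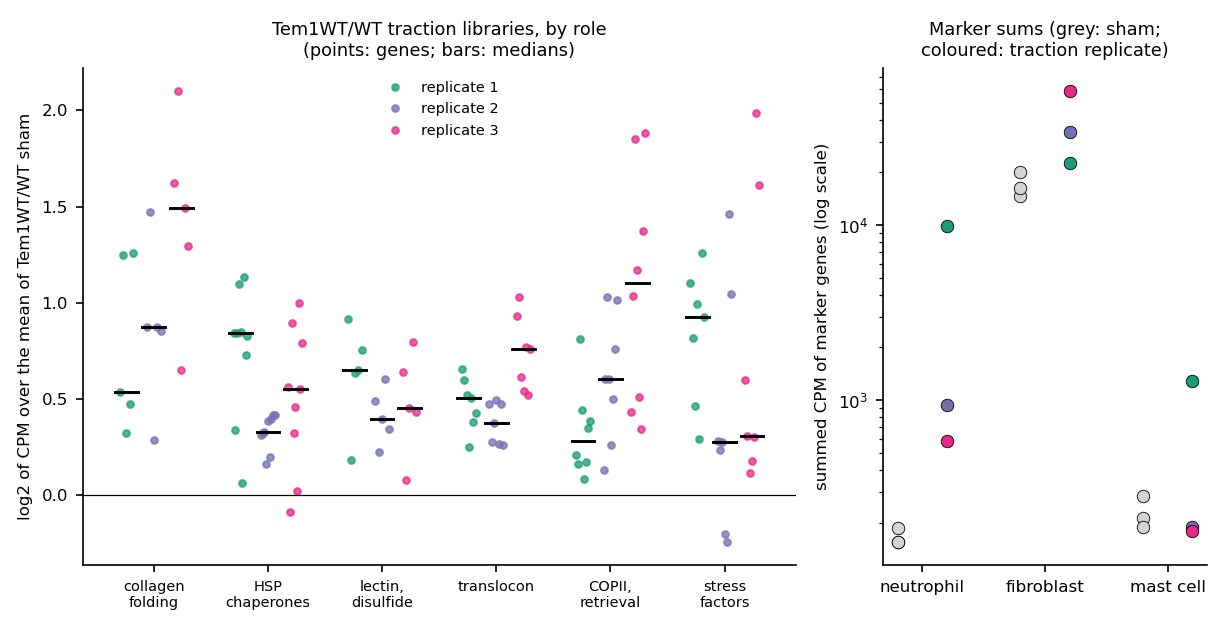
Left, log2 CPM of each gene in the 3 Tem1WT/WT traction libraries relative to the Tem1WT/WT sham mean, by role, with medians as bars. Right, summed CPM (log axis) of marker genes of neutrophils, fibroblasts and mast cells in Tem1WT/WT sham and traction libraries; replicate 1 is highest for neutrophils at 9833 CPM and replicate 3 for fibroblasts at 58620 CPM.

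With traction in Tem1lacZ/lacZ mice, 0 of the 41 genes passed in either direction (0% of all genes higher and 0% lower by edgeR), 14 were higher and 27 lower in sign, and the median log2 fold change was -0.07, beside -0.015 over all genes. At an unadjusted p under 0.05, 2 were higher and 1 lower, where 5.66% of all genes were higher and 2.46% lower. Groups did not overlap in 4 genes that were higher and 4 that were lower, against 6.77% and 6.16% of all genes. DESeq2 also called 0 of them, and limma-voom called *Creb3l1* (1.19, adjusted p = 0.0445), where it called 1.84% of all genes higher.

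Tem1lacZ/lacZ traction replicate 1 stood apart from the other two in its markers. Its keratinocyte markers summed to 59940 CPM against 20670 and 23510 CPM, its fibroblast markers to 12430 CPM against 25880 and 23140 CPM, and its matrix genes to 41560 CPM against 79970 and 71880 CPM. Of the 15 fibroblast markers 9 were lower in sign with traction in these mice (median log2 fold change -0.26). Without that library 8 members were higher and 3 lower at an unadjusted p under 0.05. The share of all genes at that unadjusted p was not taken for this fit, so these counts have no background. *Creb3l1* passed (1.34, adjusted p = 0.0495), where 0.371% of all genes were called higher and 0.00515% lower. The median over the members was -0.11. The part of the tissue in these values was not tested.

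The largest values in Tem1lacZ/lacZ mice were those of *Creb3l1* and *Fkbp10*, which also changed the most in Tem1WT/WT mice. *Creb3l1* was at 23.8, 18.8 and 21.1 CPM in sham and at 24.4, 53.6 and 50.6 CPM in traction libraries. Replicate 1 was barely above sham, and the other two were well above it (log2 fold change 1.01 ± 0.30, adjusted p = 0.598). *Fkbp10* was at 48.4, 38.2 and 55.5 CPM in sham and at 58.8, 106 and 87.2 CPM in traction libraries, with no overlap (log2 fold change 0.83 ± 0.30, adjusted p = 0.598). *P4hb* and *Atf6* were also higher in every traction library, with log2 fold changes of 0.27 and 0.20. The 4 genes lower in every traction library were *Hspa5*, *Dnajc3*, *Ddit3* and *Herpud1*. *Herpud1* was at 119, 105 and 97.8 CPM in sham and at 76.1, 67.2 and 71.6 CPM in traction libraries (log2 fold change -0.58 ± 0.18, adjusted p = 0.598). *Hspa5* was at 922, 1007 and 1066 CPM in sham and at 909, 633 and 697 CPM in traction libraries, where replicate 1 stayed near sham (log2 fold change -0.42 ± 0.21, adjusted p = 0.622). By role the median log2 fold change was 0.33 for collagen folding and -0.26 for HSP-type chaperones.

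**Figure D4:**
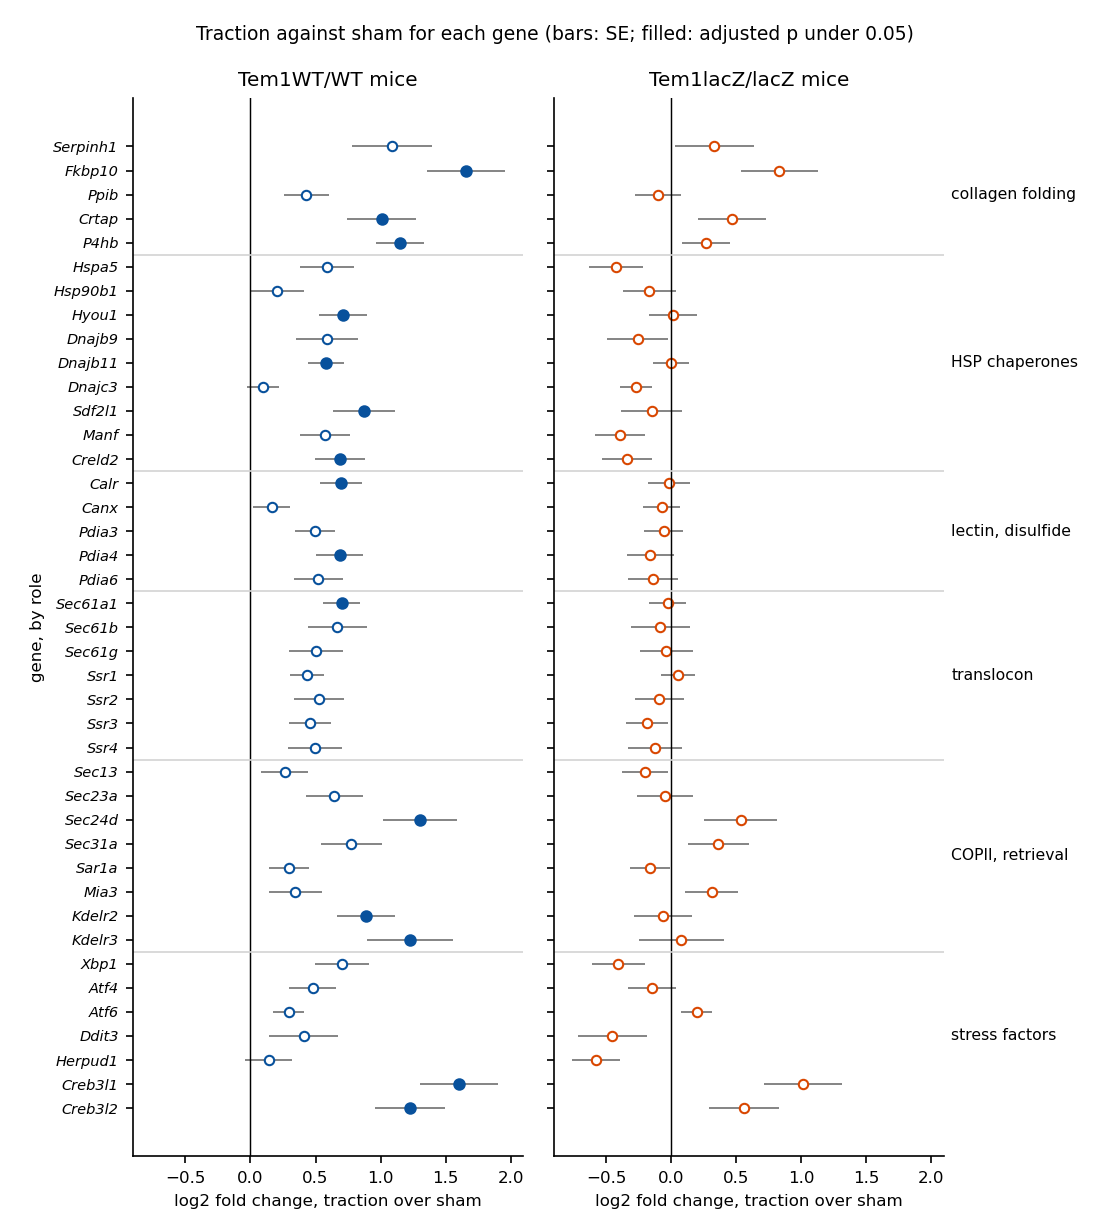
Log2 fold change of traction over sham for each gene in Tem1WT/WT mice (left) and Tem1lacZ/lacZ mice (right), with SE as bars and filled points for an adjusted p under 0.05. All 41 points are right of 0 on the left, 15 of them filled, and on the right 14 lie above 0, with *Creb3l1* at 1.01 the farthest.

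With traction, the genes were lower in Tem1lacZ/lacZ than in Tem1WT/WT scars, but none passed the test. This comparison shares the Tem1WT/WT traction libraries with the first one. By edgeR 0 of the 41 were called, where 0.0106% of all genes were called higher and 0.0955% lower. Of the 41, 39 were lower in sign, with a median log2 fold change of -0.49, beside 0.01 over all genes. At an unadjusted p under 0.05, 28 were lower and 0 higher, against 15.1% and 11.1% of all genes. In 20 genes every Tem1lacZ/lacZ library lay below every Tem1WT/WT library, and in 0 above, against 13.7% and 12.9% of all genes. DESeq2 called 16 of them lower, against 7.64% of all genes, and limma-voom 0. The edgeR count was 9 lower without Tem1WT/WT traction replicate 2, where 3.8% of all genes were called lower and 3.52% higher.

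*Creb3l1* differed the most, at 24.4, 53.6 and 50.6 CPM in Tem1lacZ/lacZ and 88.0, 101 and 146 CPM in Tem1WT/WT traction libraries (log2 fold change -1.38 ± 0.30, adjusted p = 0.0845). No Tem1lacZ/lacZ library reached the lowest Tem1WT/WT library. *Fkbp10* followed (log2 fold change -1.15 ± 0.30, adjusted p = 0.0951), then *Sec24d*, at 68.4, 101 and 107 CPM in Tem1lacZ/lacZ traction libraries (-0.99 ± 0.28, adjusted p = 0.0952). The lowest adjusted p was that of *Sec61a1*, at 177, 185 and 177 CPM against 290, 255 and 350 CPM (-0.73 ± 0.14, adjusted p = 0.0829). *Hyou1* was at 65.5, 82.0 and 84.0 CPM in Tem1lacZ/lacZ traction libraries, all below Tem1WT/WT (-0.89 ± 0.18, adjusted p = 0.0834). The 2 genes with a sign above 0 were *Sec61g* (0.16 ± 0.21) and *Ssr4* (0.11 ± 0.21).

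In sham scars the genotypes differed less. By edgeR 0 of the 41 passed, where 0.00530% of all genes were called higher and 0.00530% lower, and DESeq2 and limma-voom called 0 as well. The median log2 fold change of Tem1lacZ/lacZ over Tem1WT/WT was 0.21, beside -0.01 over all genes, with 29 genes higher in sign. At an unadjusted p under 0.05, 9 were higher and 1 lower, against 5.03% and 6.62% of all genes. Groups did not overlap in 13 genes that were higher and 4 that were lower, against 13.0% and 13.8%. The translocon genes had the largest median, 0.49. *Ssr4* was at 35.7, 34.0 and 44.5 CPM in Tem1WT/WT sham and at 56.3, 70.4 and 63.6 CPM in Tem1lacZ/lacZ sham, with no overlap (log2 fold change 0.74 ± 0.21, adjusted p = 0.409). *Xbp1* was higher too, at 252, 227 and 195 CPM against 157, 147 and 162 CPM (0.53 ± 0.21, adjusted p = 0.409). *Creb3l1* was the 1 gene lower at an unadjusted p under 0.05 (-0.79 ± 0.30, adjusted p = 0.409).

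The test of the difference between the genotypes' responses to traction, the interaction, called 0 of the 41 genes, as it did 0% of all genes in either direction. All 41 values were below 0, with a median log2 difference of -0.67 and a smallest adjusted p of 0.548. Under the 20 alternatives run for it, 39 to 41 stayed below 0. At an unadjusted p under 0.05, 23 were below 0 and 0 above, against 4.46% and 4.46% of all genes. DESeq2 and limma-voom called 0. The role medians lay between -0.85 for HSP-type chaperones and -0.58 for COPII and retrieval. Without Tem1WT/WT traction replicate 3 they were -0.35 for COPII and retrieval and -0.39 for collagen folding, which had been -0.76. Without replicate 1 that of the lectin chaperones and disulfide isomerases was the nearest to 0, at -0.48. The values of largest size were those of *Kdelr3* (-1.15 ± 0.46), *Xbp1* (-1.11 ± 0.29) and *Creld2* (-1.03 ± 0.27). All 4 comparisons and the interaction draw on the same 12 libraries, and the calls in Tem1WT/WT mice do not show by themselves that the genotypes responded differently.

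Most other genes of the pathway moved the same way with traction in Tem1WT/WT mice. Over all genes 5.61% rose and 3.54% fell, with a median log2 fold change of -0.01. Of ER-associated degradation genes 5 of 18 tested rose and 0 fell, among them *Man1b1* (0.68), *Edem1* (0.71) and *Ube2j1* (0.53, all log2 fold changes). Of other folding genes 8 of 32 rose and 0 fell, among them *Uggt1*, which senses glycoprotein folding (0.72), *P3h1*, prolyl 3-hydroxylase 1 (1.44), and *Prkcsh* (0.82). Of other translocon and glycosylation genes 7 of 28 rose, among them *Tram1* (0.62), *Tram2* (1.53) and *Srprb* (0.57), and 0 fell. Of other ER to Golgi transport genes 9 of 39 rose and 0 fell, among them *Surf4*, a cargo receptor (1.15), *Preb* (0.68) and *Mcfd2* (0.63). The medians of these 4 lists were 0.33, 0.49, 0.32 and 0.37, and 1, 3, 5 and 7 of their genes were lower in sign. Without Tem1WT/WT sham replicate 1 or replicate 2, 0% of all genes were called higher, so none of these calls held there. *Surf4* was at 130, 151 and 169 CPM in sham and at 332, 248 and 416 CPM in traction libraries, with the groups far apart.

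Of 13 other stress sensors 1 rose (*Creb3l3*, 1.08) and 0 fell. That is near the share over all genes, of which 5.61% rose and 3.54% fell. Of 21 targets of *Atf4*, 4 rose and 0 fell, among them *Ddit4* (1.06), *Aldh18a1* (0.81) and *Cebpb* (2.09). *Cebpb* was at 1107 CPM in Tem1WT/WT traction replicate 1 and at 268 and 196 CPM in the other two, beside 114 to 135 CPM in sham. Of 20 secreted matrix genes 5 rose and 0 fell, among them *Col12a1* (2.91), *Bgn* (1.45) and *Tnc* (3.75). In the other comparisons none of the genes on these lists passed the edgeR test.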

How the data were processed

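Mice, traction and libraries were handled by the authors, who prepared stranded poly(A) libraries, sequenced paired 150-bp reads, and, per the labels, used fastp 0.20.0, HISAT2 2.1.0 with GRCm38 and featureCounts 2.0.0. The authors deposited raw read counts per gene symbol, 1 file for each of 12 libraries, with totals of 41536788 to 64644293. The annotation, strand setting and treatment of multiply aligned reads are not given in the sources used here. A gene with reads of a near-identical copy, or of a gene on the opposite strand, may therefore share counts.

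Counts were filtered with filterByExpr, scaled by TMM and fitted with the robust quasi-likelihood test of edgeR 4.0.16 in R 4.3.3, in 1 model of the 4 groups with 8 residual degrees of freedom. All tests were two-sided, with Benjamini-Hochberg adjustment over 18853 genes and a threshold of 0.05, and no test was run over the members as a list. The p values measure the spread between 3 mice a group. DESeq2 1.42.0, the study's test, and limma-voom (limma 3.58.1) were alternatives, beside other filters and scalings, a block for the replicate number, fits of the compared libraries alone, and each library left out. The fits were tested on simulated data. Standard errors follow from the fitted test. Levels per kb used merged exons of GENCODE vM21, and copies were sought with blastn. Values in each library were given for each gene called, for the largest and smallest change in each role, and for *Serpinh1*, *Hspa5*, *Xbp1*, *Atf4* and *Ddit3*, which were chosen with their values in view. The members and the gene lists were chosen with earlier results of these data known. Same-numbered libraries came from different mice. Figures were drawn with matplotlib 3.10.9. Protein sequences were not used here.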

Additional observations from a re-analysis of the deposited data

Results flagged for a closer look

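The response of *Hspa5* (BiP) to traction had opposite signs in the genotypes, with every Tem1WT/WT traction library above its sham libraries and every Tem1lacZ/lacZ traction library below its sham libraries. The log2 fold change was 0.59 in Tem1WT/WT and -0.42 in Tem1lacZ/lacZ mice. Sham levels differed as well, at 579 to 799 CPM in Tem1WT/WT and 922 to 1066 CPM in Tem1lacZ/lacZ mice, without overlap. That difference was 0.54 ± 0.21 (SE), with an adjusted p of 0.409 by edgeR. Tem1lacZ/lacZ traction replicate 1, at 909 CPM, was only just below its sham libraries. The difference between the 2 responses was -1.01 ± 0.29 (SE), with an adjusted p of 0.548 by edgeR over all genes tested, so that it did not pass. Groups of 3 are too small for a test of single outlying libraries.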

How the results depend on the processing

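For traction in Tem1WT/WT mice, the count of 15 members changed with the setting, as did the share of all genes called higher (in brackets). It was 7 with all genes of at least 1 count (2.03%), 8 with upper quartile normalization (3.89%), 26 with DESeq2 (11.8%) and 9 with limma-voom (3.29%). It was 0 with the 6 libraries compared alone (0%), and 0 to 18 when 1 library was left out (0% to 8.13%). The median log2 fold change was 0.47 under both upper quartile scaling (0.4666) and limma-voom (0.4688). Upper quartile normalization moved the median of all genes to -0.12, and the genes called over the whole table to 734 higher and 939 lower, from 1057 and 668. Single genes turned sign for *Dnajc3* (-0.0154 with upper quartile normalization) and for *Ddit3* (-0.0198 without Tem1WT/WT traction replicate 1, with a range of -0.0198 to 0.66 over all alternatives). For traction in Tem1lacZ/lacZ mice the count was 1 with limma-voom (1.84% of all genes higher) and 0 to 1 when 1 library was left out (0% to 0.371%). For the genotypes with traction, the count was 16 with DESeq2 (7.64% of all genes lower). It was 0 to 9 when 1 library was left out (0.0103% to 3.8%). The median was -0.35 with upper quartile normalization, where 5 members were above 0 in sign, against 2 in the main fit. Without Tem1WT/WT traction replicate 3, 4 members were above 0 and the translocon median was 0.02. *Sec13* turned sign in 1 alternative, at 0.0151. The median of the interaction was -0.77 to -0.51 when 1 library was left out. The causes were not tested.

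Whether the replicate number marks a batch is not stated in the labels and was not tested. Of 18 same-numbered pairs, 8 had a correlation of deviations over 0.1, and the 18 ran from -0.32 to 0.25. Pairs with unlike numbers ran from -0.40 to 0.37, and 8 of 12 libraries correlated best with their own number. With the replicate number as a block, 12 members rose with traction in Tem1WT/WT mice, against 4.2% of all genes. In the other comparisons 0 members were called. *Hyou1*, *Dnajb11*, *Sdf2l1*, *Creld2* and *Pdia4* were not called with the block, so that 0 of the 9 HSP-type chaperones were, while *Serpinh1* (adjusted p = 0.0365) and *Xbp1* (adjusted p = 0.0492) were.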
